A study of Bos taurus with 12 samples.

Results

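The 10 genes followed here mark macrophages and other myeloid cells, and their expression was read in the fat of cattle. The genes were chosen by name, and a gene was measured where the array annotation gave a probe set that symbol alone. By this rule 8 of the 10 genes were measured, CD14, CD68, CSF1R, AIF1, TYROBP, FCER1G, MSR1 and F13A1, among 9155 named genes in all, through 13 probe sets. CD163 and MRC1 had no such probe set and were not analysed here. The samples were intramuscular fat (IMF) and subcutaneous fat (SCF). They came from steers of Japanese Black (JB), a beef breed with strong marbling, and of Holstein (HS), a dairy breed, all kept on energy-rich feeding. The 4 groups, JB IMF, HS IMF, JB SCF and HS SCF, held 3 samples each, 12 in all. They are named here by their numbers in the labels, 1 to 3 in IMF and 4 to 6 in SCF. The labels used here give no age and do not say whether the samples of a group, or the IMF and SCF samples of a breed, came from separate animals. The p-values therefore reflect only how these samples spread, and some of that spread may be technical.

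Macrophages live in every fat depot, between the fat cells and along the vessels. They take up dead cells, lipid and debris, and they sense microbial products. They depend on signals through the CSF1 receptor for survival, and their numbers and state are known to change as fat expands. The 8 genes cover several of their functions. CSF1R is the growth factor receptor. CD14 is the coreceptor that presents lipopolysaccharide to TLR4, MSR1 is a class A scavenger receptor, and CD68 is a glycoprotein of the endosome and lysosome membrane. TYROBP and FCER1G are small membrane adaptors that carry the signal of TREM and Fc receptors. AIF1, also called IBA1, is a calcium and actin binding protein of macrophages, and F13A1 is the A subunit of coagulation factor XIII, which tissue macrophages and platelets hold.

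The samples were whole fat tissue, so a lower signal can mean fewer cells of a type or less RNA per cell, and these cannot be told apart. The median signal of an array was 77.6 to 88.3, except in HS IMF 3 at 58.8. Every HS array had a lower mean correlation with its own group, 0.805 to 0.915, than every JB array, 0.944 to 0.962. For the GAPDH control, signal at the 3' end exceeded that at the 5' end 4.06 times in HS SCF 5, against 1.19 to 2.40 times elsewhere. Differences below are log2 differences of normalized signals with their standard error (SE). A difference was called at a Benjamini-Hochberg adjusted p below 0.05 in limma over 16811 probe sets, and a gene counts through its brightest probe set.

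Between the depots, taken over both breeds, the myeloid genes were lower in IMF than in SCF. Of the 8 genes, 7 fell and 0 rose past the threshold, where 7.91% of the 7808 named genes tested fell and 4.79% rose. The median difference of the 8 genes was −1.70, with a range of −2.19 to −1.47, and the median over all tested probe sets was −0.06. At an unadjusted p below 0.05 all 8 genes were past the threshold, against 30.3% of named genes. Of the 12 member probe sets tested, 11 fell, against 6.33% of all tested probe sets. The 1 gene that did not pass through its brightest probe set was MSR1.

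**Figure D1:**
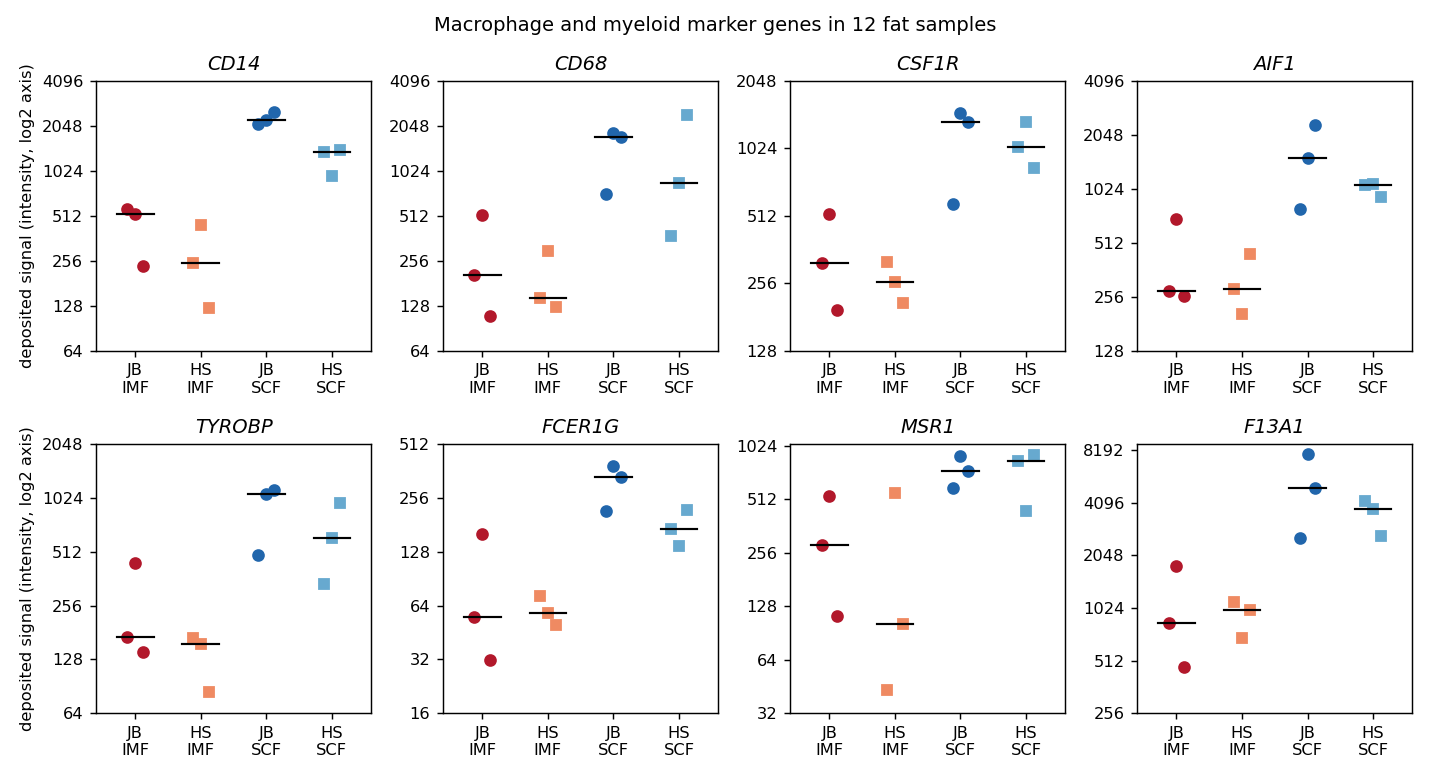
Deposited signal (intensity, log2 axis) of the brightest probe set of each of the 8 genes in the 12 samples. Points are single samples and bars are group medians, with IMF groups left of SCF groups. CD14, CSF1R, AIF1 and F13A1 show no overlap between the depots, and MSR1 has an IMF sample of each breed at the level of SCF.

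CD14 read 572, 523 and 238 in JB IMF and 246, 444 and 123 in HS IMF, against 2123, 2247 and 2559 in JB SCF and 1362, 947 and 1412 in HS SCF. Every IMF sample lay below every SCF sample, and the JB SCF samples lay close together above all the HS SCF samples. The difference between the depots was −2.19 ± 0.27 (SE; limma adjusted p = 0.000315), so the signal was 4.55 times higher in SCF. Its dimmer probe set read 44.2 to 111 in IMF and 197 to 671 in SCF. That probe set also separated the depots completely, at −2.16 ± 0.20 (limma adjusted p = 2.56e-05).

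The growth factor receptor CSF1R read 314, 522 and 194 in JB IMF and 318, 259 and 209.8 in HS IMF, against 576, 1467 and 1344 in JB SCF and 1037, 1338 and 841 in HS SCF. The deposited signals of the depots did not overlap, although JB IMF 2 and JB SCF 4 came close, and after normalization they did overlap. The difference was −1.62 ± 0.29 (limma adjusted p = 0.00482), with a signal 3.07 times higher in SCF.

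CD68 read 206, 521 and 109 in JB IMF and 145, 298 and 126 in HS IMF, against 719, 1829 and 1723 in JB SCF and 375, 847 and 2421 in HS SCF. The depots overlapped through JB IMF 2 and HS SCF 4, and the SCF samples spread widely, most of all in HS. The difference was −2.16 ± 0.47 (limma adjusted p = 0.013), 4.46 times higher in SCF.

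The scavenger receptor MSR1 read 282, 532 and 113 in JB IMF and 43.5, 552 and 102 in HS IMF, against 591, 898 and 734 in JB SCF and 845, 437 and 903 in HS SCF. Sample 2 of IMF stood high in both breeds and overlapped the lowest SCF sample, HS SCF 5. The difference of −1.62 ± 0.51 missed the threshold (limma adjusted p = 0.0631). A second, dimmer probe set of MSR1 read 0.06 to 50 in IMF and 28.4 to 99.6 in SCF and did pass, at −1.01 ± 0.25 (limma adjusted p = 0.0236). The probe sets thus agree in direction and differ in the call. The remaining MSR1 probe set was among the dim ones and was not tested, with 0.01 to 28.3 in IMF and 25.2 to 66.5 in SCF.

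Both signalling adaptors were lower in IMF. TYROBP read 171, 443 and 141 in JB IMF and 169, 156 and 84.2 in HS IMF, against 489, 1077 and 1124 in JB SCF and 337, 613 and 957 in HS SCF. JB IMF 2 alone reached into the SCF range. TYROBP differed by −1.77 ± 0.33 (limma adjusted p = 0.00586), 3.42 times higher in SCF. FCER1G read 55.2, 160.4 and 31.7 in JB IMF and 72.3, 58.5 and 49.9 in HS IMF, against 217, 383 and 334 in JB SCF and 170.2, 137 and 217 in HS SCF. Again JB IMF 2 was the only IMF sample above the lowest SCF sample, here HS SCF 5. FCER1G differed by −1.47 ± 0.29 (limma adjusted p = 0.00704), 2.77 times higher in SCF.

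AIF1 read 277, 692 and 259.5 in JB IMF and 282, 205 and 443 in HS IMF, against 794, 1527 and 2319 in JB SCF and 1076, 1087 and 919 in HS SCF. Its deposited signals did not overlap between the depots, and after normalization they did. The difference was −1.63 ± 0.37 (limma adjusted p = 0.0167), 3.1 times higher in SCF. Without JB IMF 1 or without JB IMF 3 the call of AIF1 was lost, with adjusted p of 0.0508 and 0.0536 and differences of −1.53 and −1.50.

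F13A1, through its brightest probe set, read 847, 1769 and 469 in JB IMF and 1106, 689 and 997 in HS IMF, against 2589.8, 7731 and 4995 in JB SCF and 4195, 3779 and 2649 in HS SCF. Every IMF sample lay below every SCF sample. The difference was −2.02 ± 0.37 (limma adjusted p = 0.00459), 4.07 times higher in SCF. The other probe sets of F13A1 differed by −2.42 ± 0.43 (limma adjusted p = 0.00401) and −3.21 ± 0.57 (limma adjusted p = 0.00424). The last of these read 69.0, 172 and 57.4 in JB IMF and 44.6, 57.7 and 38.5 in HS IMF, against 480.3, 1588 and 1712 in JB SCF and 2652, 378 and 195 in HS SCF. All 3 probe sets thus placed IMF below SCF, by unequal amounts.

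After normalization IMF lay wholly below SCF for 2 of the 8 genes, CD14 and F13A1, against 4.06% of named genes. In the deposited signals this held for 4, with CSF1R and AIF1 added, against 4.74% of named genes.

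Within each breed, where fewer samples enter, all 8 genes again had lower means in IMF but fewer passed. These comparisons share their samples with the comparison above and are no second test of it. In JB the differences ranged from −2.40 to −1.37 with a median of −1.82. CD14 (−2.40 ± 0.38, limma adjusted p = 0.00397), FCER1G (−1.78 ± 0.41, 0.0348) and F13A1 (−2.34 ± 0.52, 0.0298) fell, 3 of 8 against 1.28% of named genes. JB IMF lay wholly below JB SCF for 6 of the 8 genes, against 19.2% of named genes. In HS the differences ranged from −1.97 to −1.16 with a median of −1.74. Only CD14 fell in HS (−1.97 ± 0.38, limma adjusted p = 0.0169), 1 of 8 against 1.73% of named genes. HS IMF lay wholly below HS SCF for 7 of the 8 genes, MSR1 being the exception, against 15.3% of named genes. These counts rest on single samples. In JB 1 gene passed without JB IMF 1, JB IMF 3, JB SCF 5 or JB SCF 6, 5 passed without JB SCF 4, and 7 without JB IMF 2. In HS 0 passed without HS IMF 3, HS SCF 4 or HS SCF 6, 2 without JB SCF 4 or HS IMF 2, and 3 without JB IMF 2.

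Whether the depot difference itself differed between the breeds was tested as an interaction, the JB difference minus the HS difference. None of the 8 genes passed in limma, and of all named genes 0% did. At an unadjusted p below 0.05 the count was 0 of 8, against 2.02% of named genes. The estimates ran from −0.63 to 0.49 with a median of −0.42. They are wide, as for CD14 at −0.43 with a 95% interval of −1.60 to 0.74, so a breed effect of that size on the depot difference was not detectable here.

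Between the breeds no member passed the test in either depot. In IMF, JB minus HS, 0 of the 8 genes passed in limma, against 0.0256% of named genes, and 0 had an unadjusted p below 0.05, against 8.38%. The median difference was 0.02, with a range of −0.39 to 0.47, beside 0.10 over all probe sets. The estimate for CD68 was 0.00, with a 95% interval of −1.44 to 1.45, and that for CSF1R was −0.11, with an interval of −1.02 to 0.79. The CD68 interval holds a 2-fold difference in either direction, and the CSF1R interval only a 2-fold lower level in JB. The dimmer MSR1 probe set read 33.2, 50 and 20.6 in JB IMF, all above the 0.06, 20.0 and 8.7 of HS IMF. Its difference of 0.98 ± 0.35 did not pass (limma adjusted p = 0.485, unadjusted p = 0.0171), and 7.62% of named genes had JB IMF wholly above HS IMF. The count of unadjusted p above uses the brightest probe sets and leaves it out.

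In SCF, JB minus HS, 0 of the 8 genes passed in limma as well, against 0.0128% of named genes. The count at an unadjusted p below 0.05 was 0, against 4.06%. The median difference was 0.39, with a range of −0.12 to 0.83, beside 0.00 over all probe sets. For 1 of the 8 genes, CD14, the 3 JB SCF samples lay above the 3 HS SCF samples, a separation that 6.94% of named genes showed. With 3 samples a group, 1 such gene among 8 does not set CD14 apart. CD14 differed by 0.83 ± 0.38, with a 95% interval of 0.00 to 1.66 (limma adjusted p = 1). The second probe set of CD14 read 671, 471 and 654 in JB SCF and 238, 197 and 311 in HS SCF. This second probe set separated the breeds too, at 1.12 ± 0.28, and did not pass either (limma adjusted p = 0.868). Its unadjusted limma p was 0.0017, which the count above leaves out because it uses the brightest probe sets. The adaptor FCER1G was next at 0.65 ± 0.41, and CSF1R at −0.12 ± 0.42 and MSR1 at −0.02 ± 0.72 were the lowest. In simulated data of this design, a 2-fold change between the breeds was recovered for 19.4% of probe sets in IMF and 20.9% in SCF. A 4-fold change was recovered for 71.6% and 67.2%. These rates are for probe sets drawn at random from all those tested. They also assume independent noise of equal spread in all groups, whereas the HS arrays spread more than the JB arrays. In both depots the median SE was 0.50 for the members and 0.33 over all probe sets, so recovery may be lower for the members.

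**Figure D2:**
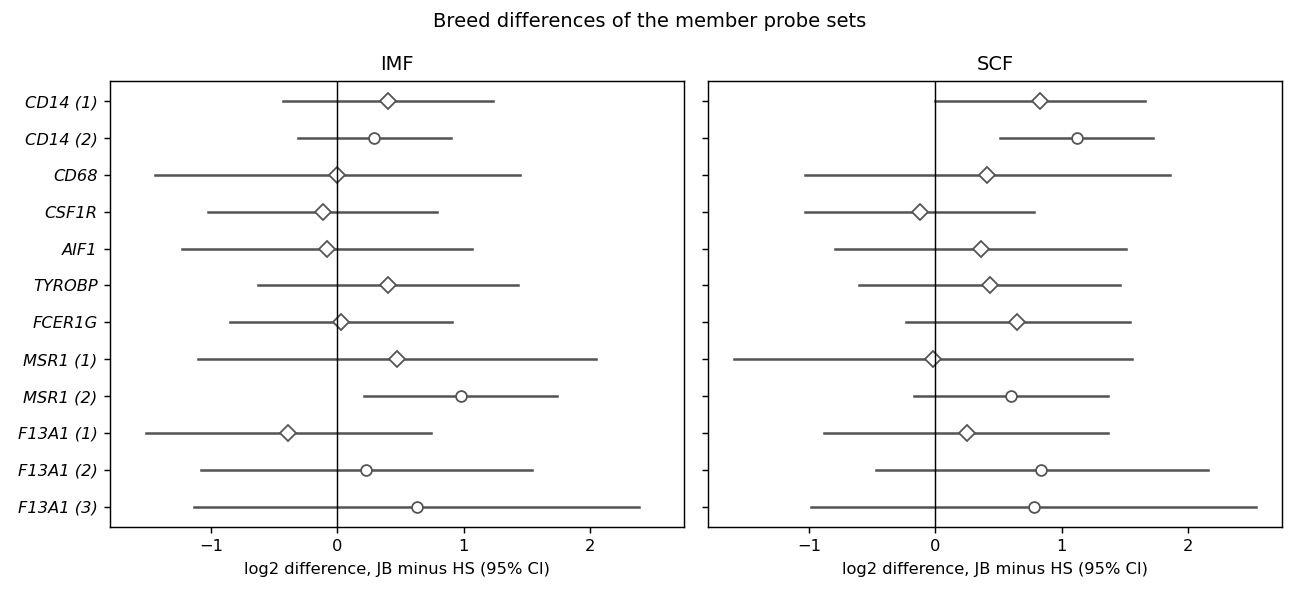
Log2 difference of JB minus HS for each tested member probe set, in IMF (left) and SCF (right), with 95% confidence intervals, diamonds for the brightest probe set of a gene. No point is filled because none passed the threshold. Both CD14 probe sets lie to the right of 0 in SCF, and most intervals in either depot span it.

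Ordered by their mean normalized level, CD14, CD68, TYROBP and FCER1G were highest in JB SCF, then HS SCF, JB IMF and HS IMF. AIF1 and F13A1 had the same order with the IMF groups exchanged. CSF1R was highest in HS SCF, then JB SCF, HS IMF and JB IMF, and MSR1 in HS SCF, then JB SCF, JB IMF and HS IMF. Neighbours in these orders mostly overlapped. The neighbours on either side of the step between the depots were separate for CD14, CSF1R, AIF1 and F13A1. This compares a single group of each depot, and over whole depots CSF1R and AIF1 overlapped after normalization. The share of named genes with such a step was not computed. Within a depot only CD14 in SCF had groups without overlap.

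In the JB groups the members shared an order of samples. In JB IMF, sample 2 was the highest of its group for 7 of 8 genes, all but CD14, and sample 3 was the lowest for all 8. In JB SCF, sample 4 was the lowest for all 8. The share of all genes with these orders was not computed, and they were not particular to the members. In JB IMF 1 to 3 the pan-leukocyte mean was 7.49, 8.24 and 6.94, and the adipocyte mean 11.19, 12.05 and 10.06. In JB SCF 4 to 6 the pan-leukocyte mean was 8.67, 9.66 and 9.73, while the adipocyte mean was 11.98, 12.02 and 11.91. In HS the members showed no such order, with the highest of each HS group shared among all 3 samples. The median SD of the members was 0.90 in JB IMF, 0.55 in HS IMF, 0.73 in JB SCF and 0.42 in HS SCF, on the log2 scale. Over all probe sets it was 0.23, 0.52, 0.22 and 0.35 in the same groups. In JB the members thus spread more than the usual probe set, while in HS IMF the SDs were close to each other.

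Markers of fat cells and of muscle fibres, which surround intramuscular fat, were set beside the members. The adipocyte list was lower in IMF, in that all 13 measured genes had a negative difference with a median of −0.83. Only the glycerol channel AQP7 fell past the threshold (−1.18 ± 0.33, limma adjusted p = 0.0416), while DGAT2, which makes triacylglycerol, stood at −1.13 ± 0.34 (limma adjusted p = 0.0509). The summed deposited signal of the 13 adipocyte genes was 27090 to 72720 in IMF and 65030 to 101200 in SCF, and 0 of them were at 0 in any sample. Of 18 skeletal muscle fibre genes, 15 rose in IMF, with a list median of 6.57. Examples are ATP2A1, the calcium pump of fast fibres (5.45 ± 0.21, limma adjusted p = 3.12e-08), and TNNT3, fast troponin T (7.10 ± 0.33, limma adjusted p = 1.46e-07). The summed muscle signal was 74330 to 167300 in IMF and 4954 to 29260 in SCF, without overlap, and TNNT1 was at 0 in 1 sample. The genes that did not pass were CKM, MYL11 and MYH7, at 0.61 ± 0.20, 0.70 ± 0.29 and 0.56 ± 0.23. In SCF they read 1588 to 4850, 520 to 913 and 1923 to 4408, so the lowest SCF sums are largely theirs. Muscle signal followed depot in every sample, so muscle share and depot cannot be told apart.

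**Figure D3:**
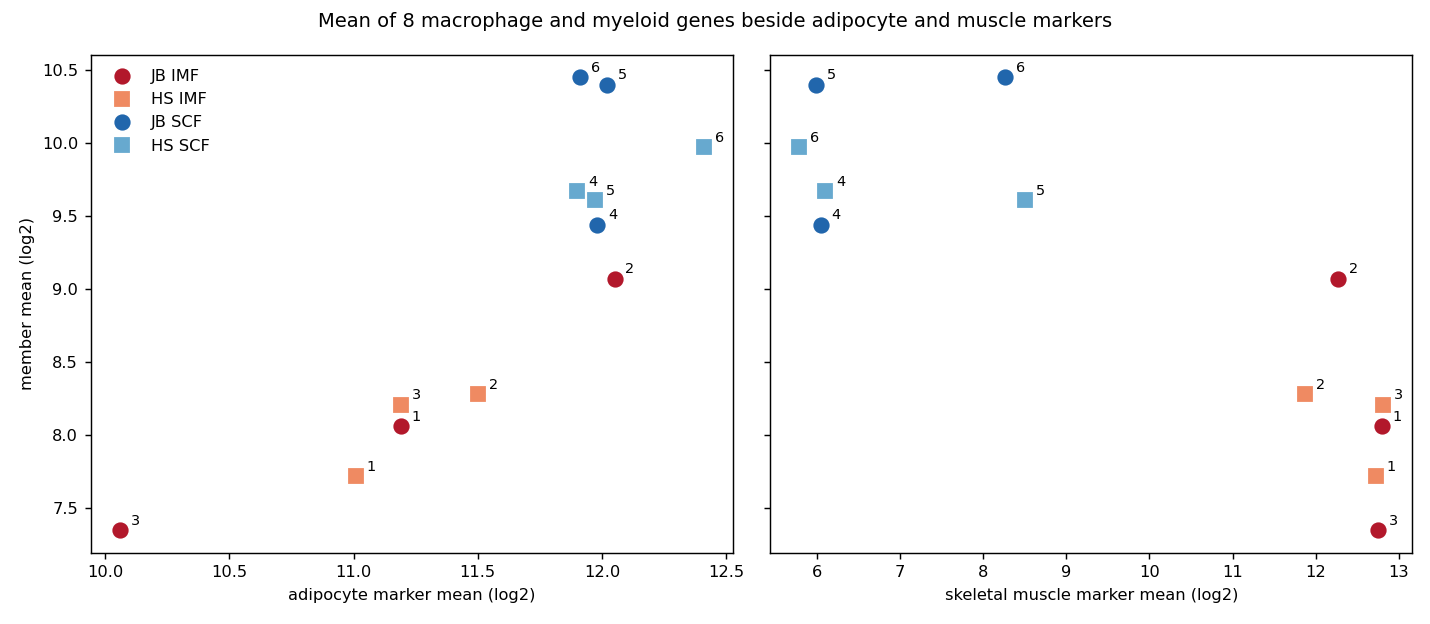
Mean normalized log2 signal of the 8 members in each sample (vertical) against the mean of the 13 adipocyte genes (left) and the 18 skeletal muscle genes (right). Numbers are the sample numbers. JB IMF 2 has an adipocyte mean of 12.05, inside the range of the SCF samples, and a member mean of 9.07, below all of them.

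The member mean of a sample was 7.35 to 9.07 in IMF and 9.44 to 10.45 in SCF. In IMF it was lowest where the adipocyte mean was lowest, in JB IMF 3 (7.35 beside 10.06), and highest where the adipocyte mean was highest, in JB IMF 2 (9.07 beside 12.05). SCF samples had nearly equal adipocyte means, 11.90 to 12.41. Member mean minus adipocyte mean was −3.29 to −2.71 in IMF and −2.54 to −1.46 in SCF, so this mean of 8 genes did not overlap either. Taken singly, every tested member probe set did overlap between the depots once the adipocyte mean was subtracted. The share of all genes that would stay separate was not computed. In JB IMF 2, whose adipocyte mean lay inside the SCF range, this measure was −2.98. JB SCF 6 and HS SCF 5 had the highest muscle means in SCF, 8.27 and 8.50 against 5.79 to 6.10 in the other SCF samples. Their member means of 10.45 and 9.61 were the highest and the second lowest of SCF. Without these samples, 5 of the 8 genes passed between the depots, with CD68 at −2.09 ± 0.57 (limma adjusted p = 0.0674) and AIF1 at −1.43 ± 0.42 (0.0872) lost.

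With every array centred on its adipocyte marker mean, all 8 genes stayed lower in IMF, with a median of −0.84, and the median of all probe sets moved to 0.80. Centring shifts every probe set alike, so the members stood 1.64 log2 units under that median here as before. After this centring 3 of the 8 genes passed, against 0.628% of named genes. They were CD14 (−1.32 ± 0.39, limma adjusted p = 0.014), CD68 (−1.29 ± 0.41, 0.0202) and F13A1 (−1.16 ± 0.41, 0.0321). FCER1G had the smallest difference, −0.61 ± 0.39. Centred on stromal fibroblast markers, 6 of 8 passed, against 1.72% of named genes, with a member median of −1.17. Centred on endothelial markers, 7 of 8 passed, against 2.45%, with a member median of −1.57. How large the depot difference is therefore depends on which tissue part the signal is set against, while the sign did not change in these scalings.

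**Figure D4:**
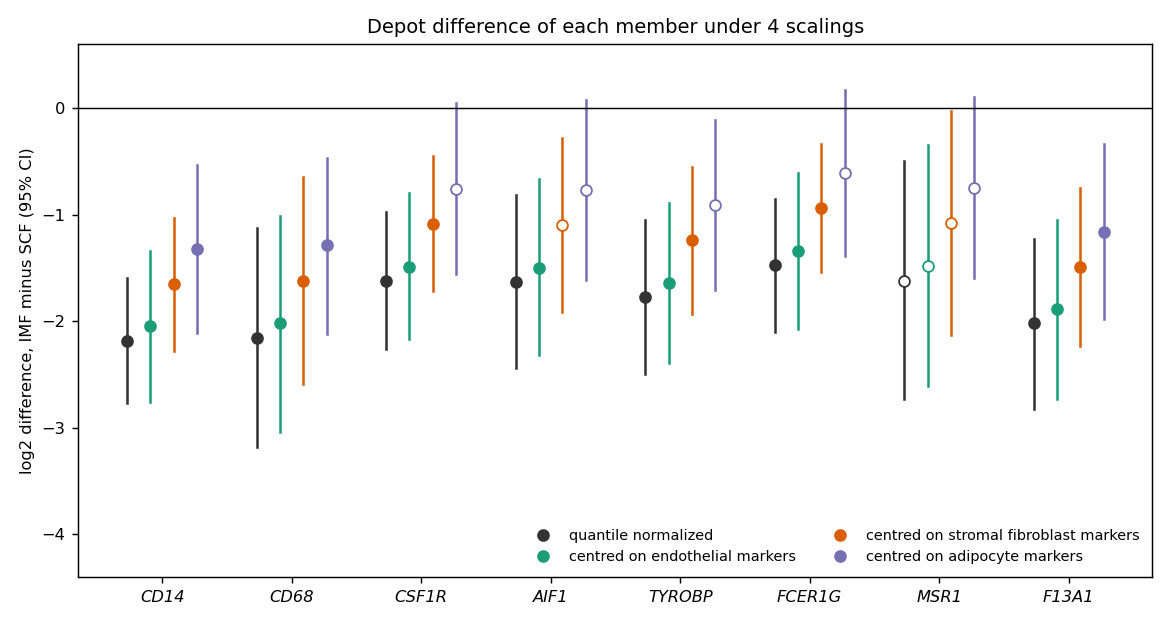
Log2 difference of IMF minus SCF for the 8 members, with 95% confidence intervals, after quantile normalization and after centring each array on endothelial, stromal fibroblast or adipocyte markers. Filled points passed the threshold. All 32 points lie below 0, and those centred on adipocyte markers lie nearest to it, with CD14, CD68 and F13A1 passing.

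Genes of other leukocytes were examined next, because TYROBP, FCER1G and CD14 are not made by macrophages alone. All 6 measured pan-leukocyte genes fell in IMF, with a median of −1.65. They include the tetraspanin CD53 (−1.96 ± 0.31, limma adjusted p = 0.0018), CD48 (−1.77 ± 0.33, 0.00531), the actin regulator CORO1A (−1.48 ± 0.28, 0.00556) and PTPRC, the phosphatase CD45 (−1.53 ± 0.31, 0.00858). Their summed signal was 635.4 to 2223 in IMF and 2884 to 6114 in SCF. Of 8 neutrophil genes on the array, 5 were too dim to test, among them MPO and ELANE, and CAMP was at 0 in 3 samples. S100A8 (−2.39 ± 0.53, limma adjusted p = 0.0144) and S100A12 (−2.13 ± 0.59, 0.0398) fell, which are calcium binding proteins of neutrophils and monocytes, and S100A9 stood at −0.60 ± 0.33. The summed neutrophil signal was 252.8 to 2177 in IMF and 903.8 to 4813 in SCF.

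Lymphocyte and mast cell genes were read in the same way. Of 7 T and NK cell genes tested, 1 fell, the granule protein gene NKG7 (−1.51 ± 0.39, limma adjusted p = 0.0293), with a list median of −0.43. CD3G, a chain of the T cell receptor complex (−0.67 ± 0.29), the coreceptor chain CD8A (−0.50 ± 0.27) and the receptor's kinase ZAP70 (0.41 ± 0.26) did not pass. Of the 7 differences 5 were negative and 2 positive, those of ZAP70 and of CD2, which is named here after its value was seen. The summed signal of the list was 440.5 to 648.6 in IMF and 400.8 to 1195 in SCF. Of 2 B and plasma cell genes tested, JCHAIN, the joining chain of secreted immunoglobulin, fell (−2.29 ± 0.54, limma adjusted p = 0.0185) and MZB1 stood at 0.35 ± 0.30. That list summed to 168.8 to 546 in IMF and 434.4 to 1714 in SCF. Of 2 mast cell genes tested, FCER1A fell (−1.39 ± 0.40, limma adjusted p = 0.0444), and KIT stood at −0.81 ± 0.34. The mast cell list summed to 138.7 to 384.8 in IMF and 342.9 to 1555 in SCF. No dendritic cell gene of the list had a probe set. The part of any of these cells in the members' difference was not tested.

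Blood left in the tissue was read through erythroid and platelet genes. None of 5 erythroid genes passed in limma, with a median of 0.23. Their signals summed to between 346.9 and 823.9 in IMF and between 458.4 and 963.5 in SCF. Of 2 platelet genes tested, 0 passed. The platelet chemokine PF4 stood at −0.66 ± 0.21 (limma adjusted p = 0.0629) and the integrin chain ITGB3 at −0.17 ± 0.36, which bears on F13A1 because platelets also carry it. Of 9 endothelial genes 0 passed, with a median of −0.18. Of 10 stromal fibroblast genes, MFAP5, a microfibril protein, and PDGFRA, a growth factor receptor, fell (−1.17 ± 0.31 and −0.73 ± 0.21, limma adjusted p = 0.0336 and 0.0455). The stromal list had a median of −0.60 and summed to 27720 to 42720 in IMF and 42570 to 82470 in SCF.

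The partners of the members were read from lists of their pathways. The list drawn around TYROBP and FCER1G holds Fc and TREM receptors, inhibitory receptors and kinases. TREM1 was too dim to test and TREM2 had no probe set. Of the 8 genes tested, 6 fell in IMF and 0 rose, with a median of −1.01. Those that fell include the kinases BTK (−1.04 ± 0.18, limma adjusted p = 0.00316) and LYN (−0.97 ± 0.19, 0.00725). The kinases SYK (−0.30 ± 0.14, limma adjusted p = 0.198) and FGR (−0.44 ± 0.25, 0.285), named after their values were seen, did not pass. The activating and inhibitory immunoglobulin receptors FCGR1A (−1.61 ± 0.28, 0.00394) and FCGR2B (−1.45 ± 0.31, 0.0117) fell too. FCER1A, the mast cell gene above, is on this list as well.

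Around CSF1R, neither ligand passed the test. CSF1 stood at −0.47 ± 0.47 (limma adjusted p = 0.565) and IL34, the other ligand, at −0.10 ± 0.23 (limma adjusted p = 0.812). In the same list of 5 genes 2 fell, CSF2RB, the beta chain shared by the GM-CSF, IL-3 and IL-5 receptors (−2.23 ± 0.35, limma adjusted p = 0.00175), and IRF8, a transcription factor of the monocyte lineage (−1.54 ± 0.27, 0.00426).

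Around CD14, 4 of 6 genes of the lipopolysaccharide receptor pathway fell, with a median of −1.0. LBP, which hands lipopolysaccharide to CD14, stood at −2.54 ± 0.46 (limma adjusted p = 0.00493), and TLR2, a receptor that also works with CD14, at −1.61 ± 0.25 (0.00153). The signalling proteins IRAK4 (−1.13 ± 0.22, limma adjusted p = 0.00674) and MYD88 (−0.88 ± 0.21, 0.0199) fell too. TLR4 itself (−0.53 ± 0.16, limma adjusted p = 0.0507) and IRAK1 (−0.34 ± 0.30, 0.515), named after their values were seen, did not pass.

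Among 13 scavenger receptor, C1q and tissue macrophage genes, 9 fell and 0 rose, with a median of −1.45. VSIG4, the complement receptor of resident macrophages, read 39.6 to 201 in IMF and 382 to 2794 in SCF (−3.31 ± 0.46, limma adjusted p = 0.000813). The C1q chains, made largely by macrophages, were nearly alike at −2.48 ± 0.33 for C1QA, −2.52 ± 0.37 for C1QB and −2.46 ± 0.34 for C1QC (limma adjusted p = 0.000569, 0.00131 and 0.00069). For VSIG4 and each C1q chain every IMF sample lay below every SCF sample after normalization, a separation that 4.06% of named genes showed. CTSS and SCARB1, named after their values were seen, separated too, and the other genes of the list overlapped. The list summed to 7878 to 17050 in IMF and 16480 to 46220 in SCF.

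Of 11 lipid-laden macrophage genes, 5 fell, with a median of −0.82. They include the lipid carrier APOE (−1.99 ± 0.34, limma adjusted p = 0.00334), the membrane glycoprotein GPNMB (−1.96 ± 0.47, 0.0208), the lysosomal protease CTSB (−0.79 ± 0.19, 0.0232) and the lipid droplet protein PLIN2 (−1.74 ± 0.49, 0.0405). This list shares LPL and FABP4 with the adipocyte list, and fat cells make several others of it. Among 6 phagocyte oxidase and integrin genes 2 fell, the leukocyte integrin chain ITGB2 (−1.93 ± 0.40, limma adjusted p = 0.00984), which is also on the pan-leukocyte list, and the oxidase subunit NCF1 (−1.05 ± 0.23, 0.0131). CYBB, the catalytic subunit, stood at −1.54 ± 0.47 (limma adjusted p = 0.0557).

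Genes of recruitment and activation were read last. Of 4 chemokines, CCL8 fell (−1.99 ± 0.29, limma adjusted p = 0.00112), while CCL2, the main attractant of monocytes, stood at −0.76 ± 0.53 and CCL3 at −0.04 ± 0.18. Of 10 activation genes 2 fell, the cytokine IL6 (−2.30 ± 0.29, limma adjusted p = 4e-04) and the costimulator CD86 (−1.72 ± 0.28, 0.00263). Of the 10 differences 6 were negative and 4 positive, with a list median of −0.09. IL4R stood at −0.49 ± 0.23 and ARG1, a marker of alternative activation in mice, at 0.24 ± 0.15. The inflammatory cytokines IL1B (0.31 ± 0.34) and TNF (0.28 ± 0.26), named after their values were seen, did not pass. In both breed comparisons 0 genes of any of these lists passed in limma.

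The named genes whose pattern over the 12 samples was most like the mean of the members were FOLR2, PEPD, PON3, APBB1IP, GMFG and PYCARD. Likeness was the root mean square distance of log2 values, each gene centred on its own mean. It was 0.259 for FOLR2, the folate receptor of tissue macrophages, and 0.290, 0.311, 0.327, 0.338 and 0.352 for the others, where the median of 7800 genes was 1.044. Measured in the same way against the mean of the other 7, the members themselves lay between 0.326 for FCER1G and 0.758 for MSR1. TYROBP and CSF1R lay near FCER1G, at 0.361 and 0.391. F13A1, AIF1, CD14 and CD68 followed at 0.511, 0.514, 0.537 and 0.590, and MSR1 lay furthest from the common pattern. Chosen for their likeness, these 6 genes carry the depot difference by construction, −1.65 to −1.41, and it is no further test.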

How the data were processed

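RNA of 12 fat samples was hybridized as biotin-labelled cRNA to the Affymetrix bovine array, per the labels' protocols. The deposited values are linear intensities, made with GCOS 1.1.1 and Affymetrix Expression Console 1.1, per the submitters' processing notes. How they were summarized and normalized is not given in the sources used here. Genes were named by the platform annotation, with symbols updated through the Entrez identifier for 13263 of 13292 probe sets with 1 symbol, 86 having several and 10638 none.

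Intensities were turned into log2(signal + 16), a scale that shrinks the changes of weak genes, and quantile normalized. The 112 control probe sets and the 30% dimmest of the other 24016 were left out, leaving 16811. The 4 group means were fitted with limma 3.58.1 in R 4.3.3 (8 residual and 4.05 prior degrees of freedom), with Benjamini-Hochberg adjustment over all tested probe sets of a comparison. The depot difference averages both breeds. In simulated data 52.2% of 2-fold and 92.5% of 4-fold depot changes were recovered, with 5 false calls among 16611 unchanged probe sets. The changed probe sets were drawn at random from all those tested. The simulated noise was independent between probe sets and had the same spread in all 4 groups. In the data the median SD over all probe sets ran from 0.22 in JB SCF to 0.52 in HS IMF. The rates may therefore differ in the data. Between the depots the median SE was 0.35 for the members and 0.23 over all probe sets.

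All members are named through every probe set with 1 symbol, and up to 4 genes of each of 22 lists by the smallest p between the depots. The members, lists and this rule were chosen with earlier results of these data known, and centring on stromal and endothelial markers was added after the data were seen. The number of arrays, 3 a group, limits the precision. No 2 arrays shared more than 0.373% of their values. Plots used matplotlib 3.10.9, numpy 2.4.6 and pandas 2.3.3 in Python 3.11.15.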

Additional observations from a re-analysis of the deposited data

Results flagged for a closer look

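JB IMF 2 stood apart from the other 5 IMF samples for 2 of the 13 member probe sets. TYROBP read 443 in JB IMF 2 and 84.2 to 171 in the others, and on the normalized log2 scale its gap to the nearest sample was 0.772 of the whole range. The third F13A1 probe set read 172 in JB IMF 2 and 38.5 to 69.0 in the others, with a gap of 0.721 of the range on the normalized log2 scale. Both gaps exceed the 95% critical value of Dixon's test for 6 samples. Each probe set was examined in both depots, 26 groups in all, of which chance alone marks about 1 in 20. JB IMF 2 also had the highest adipocyte mean in IMF, and its part in these gaps was not tested. Without JB IMF 2 the depot difference was −2.02 ± 0.30 for TYROBP and −3.42 ± 0.61 for this F13A1 probe set (limma adjusted p = 0.00164 and 0.00487), against −1.77 and −3.21 with it.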

How the results depend on the processing

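The number of members past the threshold was recomputed under 28 other settings. Between the depots over both breeds it was 7 of 8. It was 3 with arrays centred on adipocyte markers, 5 without JB SCF 6 and HS SCF 5, 6 centred on stromal fibroblast markers, and 6 to 8 with 1 sample left out. CD14 and F13A1 passed in all 26 other settings that gave this comparison, and CD68 in 25. CSF1R, TYROBP and FCER1G each passed in 25 and lost their call when centred on adipocyte markers, with adjusted p of 0.122, 0.0686 and 0.191. AIF1 passed in 21, and MSR1 in 5 of the 26, those with values as deposited, median centring, array weights, without JB IMF 2 and without HS IMF 2. The depot difference of all 8 genes was negative in all of these settings. Within JB, 3 passed, and the count was 8 with array weights, 1 with only the compared groups in the fit, 1 without JB SCF 6 and HS SCF 5, 1 centred on stromal and 1 on endothelial markers, 0 centred on adipocyte markers, and 1 to 7 with 1 sample left out. Within HS, 1 passed, and the count was 4 with values as deposited, 2 with median centring, 2 with 1 probe set per gene, and 0 with array weights, only the compared groups, either adipocyte or stromal centring, or without HS IMF 3 and HS SCF 4. With 1 sample left out it was 0 to 3. Among all tested probe sets, calls within JB numbered 516 (154 lower). They were 4340 with array weights (2432 lower) and 1038 with only the compared groups (357 lower). Calls within HS numbered 558 (255 lower), and 184 (30 lower) and 158 (28 lower) in those settings. The JB count of 8 with array weights thus came with more calls over all probe sets. The causes of these changes were not tested. For the breeds and the interaction the count was 0 in every setting run, and a sign that changed in 84 of 1358 uncalled values has no direction to lose.

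Sample numbers were also fitted as a replicate block, which gave 7 members and 2031 probe sets between the depots, 3 and 509 within JB, and 1 and 544 within HS. Same-numbered samples are of different breeds within the same depot. This block therefore cannot show whether IMF and SCF samples came from the same animals. Deviations of same-numbered samples correlated at −0.04 to 0.12 in IMF and −0.28 to −0.01 in SCF. Over all probe sets the calls between the depots were 1848 (784 higher, 1064 lower). They were 5029 centred on adipocyte markers (4953 higher, 76 lower), 3559 on stromal markers (3349 and 210), 1092 on endothelial markers (775 and 317), 1897 as deposited (579 and 1318), 1192 with 1 probe set per gene, 3154 with array weights, 800 without JB SCF 6 and HS SCF 5, and 923 to 2338 with 1 sample left out.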

Other observations

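Of 6 smooth muscle and pericyte genes, which mark vessel walls, 4 rose in IMF and 0 fell, with a list median of 2.91. The smooth muscle myosin heavy chain MYH11 differed by 3.73 ± 0.40, calponin CNN1 by 3.72 ± 0.32, transgelin TAGLN by 2.92 ± 0.32 and the actin ACTA2 by 2.91 ± 0.29 (limma adjusted p = 9.62e-05, 1.89e-05, 0.000103 and 5.11e-05). The pericyte genes, named after their values were seen, did not pass, with RGS5 at 1.73 ± 0.60 and PDGFRB, a growth factor receptor, at −0.81 ± 0.27 (limma adjusted p = 0.086 and 0.0779). The summed signal of the list was 10330 to 53760 in IMF and 2841 to 6409 in SCF. Of 2 lymphatic endothelial genes tested, podoplanin PDPN stood at −0.88 ± 0.33 (limma adjusted p = 0.112) and LYVE1, which some resident macrophages also carry, at −0.86 ± 0.55 (limma adjusted p = 0.338).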
